A study of Mus musculus with 45 samples.

Results

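The 10 genes described here mark the endothelium of the liver, both the general lining of blood vessels and the specialised lining of the sinusoids. They are Cdh5, Pecam1, Stab1, Stab2, Lyve1, Kdr, Clec4g, Tek, Oit3 and Eng, and they were taken by symbol from a deposited table with 24946 usable genes. All 10 were above the level needed for testing, among 11244 genes tested. Each was followed over 12 groups of mouse liver libraries set by stage, diet label and sex label.

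The sinusoids are the capillaries of the liver, and their endothelium has open pores in place of a closed wall, so that plasma reaches the hepatocytes directly. These cells clear waste such as hyaluronan, modified proteins and immune complexes from the blood through scavenger receptors and lectins. Their identity depends on growth factor signals from neighbouring cells, among them vascular endothelial growth factor (VEGF), angiopoietins and bone morphogenetic proteins (BMPs), and in chronic liver injury they are known to lose pores and sinusoidal features, a process called capillarisation.

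The series measured bulk RNA from liver tissue lysate of wild-type (WT) mice given the Lieber-DeCarli liquid diet, in which ethanol takes the place of other calories, in 45 libraries. Peak libraries followed 6 weeks of control or ethanol diet. For early resolution, ethanol-fed mice received the control diet for a further 3 days, and for late resolution for 2 weeks. The labels do not describe what control-labelled mice of the resolution stages were fed in that time. At each stage, libraries labelled control and ethanol, female and male were crossed, which gave 9 groups of 4 libraries and 3 groups of 3: early ethanol female, late ethanol female and late ethanol male. The strain and age of the mice were not given in the sources used here, nor whether each library is a different animal. The p-values therefore measure no more than the spread between these libraries, which may be technical. The unit, TPM, is the abundance of a transcript when each library is set to the same total. It corrects for transcript length and hides the sequencing depth. Every library had all 10 members above 0, and hepatocyte albumin (Alb) ran from 49422 to 170591 TPM.

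The labels and the sex-chromosome transcripts went against each other in 22 of the 45 libraries. Xist, the RNA of the inactive X chromosome, stood at 13.7 to 51.8 TPM in the 21 ethanol-labelled libraries, where the Y-linked Eif2s3y was at most 0.0386 TPM. In 23 of the 24 control-labelled libraries Eif2s3y was 7.83 to 12.7 TPM and Xist at most 0.349 TPM, whatever the sex label. The exception was late control female 1, with 39.5 TPM of Xist and Eif2s3y at 0. These transcripts therefore followed the diet label and not the sex label, and a difference between diet labels cannot be told apart from a difference between Xist-positive and Y-positive livers. Groups are named by their labels only. In bulk tissue, fewer endothelial cells and less RNA per cell cannot be told apart either.

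Promoter sequences are shown for 3 members that were lower together in male-labelled peak libraries (Kdr, Clec4g and Tek) and for Stab1, which did not keep such a difference after scaling. They are from RefSeq on GRCm38.p6, 250 bases before to 50 after the annotated start, read 5′ to 3′ on the gene's strand. RefSeq entries matched for 6 of the 10 members, those 4 with Stab2 and Eng, and not for Cdh5, Pecam1, Lyve1 and Oit3. Kdr lies at chr5:75978406-75978705 on the minus strand, Clec4g at chr8:3720602-3720901 on the minus strand, Tek at chr4:94739039-94739338 on the plus strand and Stab1 at chr14:31168592-31168891 on the minus strand. Capitals mark matches on either strand to ACNGGAA, a form of the site of ETS factors, or to AGATAA, a form of the site of GATA factors; the motifs do not overlap.
Kdr: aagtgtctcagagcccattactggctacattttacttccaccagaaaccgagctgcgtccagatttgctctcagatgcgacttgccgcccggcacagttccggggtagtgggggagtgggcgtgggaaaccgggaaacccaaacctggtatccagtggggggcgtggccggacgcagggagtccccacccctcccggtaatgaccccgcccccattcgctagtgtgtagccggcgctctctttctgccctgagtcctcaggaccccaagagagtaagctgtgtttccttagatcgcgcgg
Clec4g: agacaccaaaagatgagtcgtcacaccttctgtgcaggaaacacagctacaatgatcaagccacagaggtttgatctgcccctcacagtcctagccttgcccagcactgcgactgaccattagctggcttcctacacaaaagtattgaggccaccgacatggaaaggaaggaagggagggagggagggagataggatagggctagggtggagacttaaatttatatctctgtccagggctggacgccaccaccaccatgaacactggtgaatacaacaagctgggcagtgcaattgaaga
Tek: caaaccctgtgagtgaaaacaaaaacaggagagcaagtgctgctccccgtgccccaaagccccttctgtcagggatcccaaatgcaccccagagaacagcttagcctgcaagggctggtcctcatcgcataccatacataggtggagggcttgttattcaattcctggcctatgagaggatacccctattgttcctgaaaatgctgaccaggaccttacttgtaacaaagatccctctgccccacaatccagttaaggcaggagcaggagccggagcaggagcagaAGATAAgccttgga
Stab1: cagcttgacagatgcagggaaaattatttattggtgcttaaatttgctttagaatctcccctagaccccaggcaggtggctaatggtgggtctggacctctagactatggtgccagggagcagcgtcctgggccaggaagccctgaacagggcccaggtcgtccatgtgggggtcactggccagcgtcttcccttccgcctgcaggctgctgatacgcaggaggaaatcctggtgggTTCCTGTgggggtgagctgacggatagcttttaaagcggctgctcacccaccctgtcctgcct
ETS and GATA proteins are families of transcription factors that act in endothelium. The ETS form was in 1 of the 6 member promoters, that of Stab1 on the minus strand, and in 18.4% of all 32851 promoters of this length. The GATA form was in 1 of the 6, that of Tek on the plus strand, and in 11.2% of all promoters. A missing match says only that these letters are not in this window.

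Clec4g, a C-type lectin of sinusoidal endothelium also called LSECtin, was the most abundant member in all 45 libraries, on the per-length TPM scale. It ran from 28.6 TPM in peak control male 1 to 158 TPM in peak ethanol female 2, with a mean of 81.5 TPM. It made up 35.3% to 57.3% of the summed TPM of the 10 members. The other members followed far below, from Eng at a mean of 15.0 TPM, Pecam1 at 14.6, Oit3 at 11.6 and Stab2 at 11.3 to Cdh5 at 8.95, Kdr at 7.65, Stab1 at 7.19, Lyve1 at 5.81 and Tek at 3.31 TPM. Lyve1 and Kdr had the widest range, with the highest library 10.9 and 10.1 times the lowest, and Stab1 the narrowest at 3.10 times.

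The sum of the 10 members was lowest, at 62.2 TPM, in peak control male 1 and highest, at 299.6 TPM, in peak ethanol female 1. By group it was 275 ± 25.4 TPM (SD, n = 4) in peak ethanol female and 93.2 ± 40.6 TPM (SD, n = 4) in peak control male libraries. The same 2 groups were at the ends of the order for most members. Peak control male had the lowest group mean of every member except Lyve1, and peak ethanol female the highest of every member except Stab2 and Lyve1. Between neighbours in the order of the 12 group means, few steps exceeded the larger of both SDs: 2 of 11 for Clec4g, 1 of 11 for each of Lyve1, Kdr and Eng, and 0 of 11 for the other 6 members. For Clec4g those steps set peak ethanol female above early ethanol male, and late control male above late control female. For Lyve1 and Kdr the step was at the top, where peak ethanol male led for Lyve1 and peak ethanol female for Kdr.

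**Figure D1:**
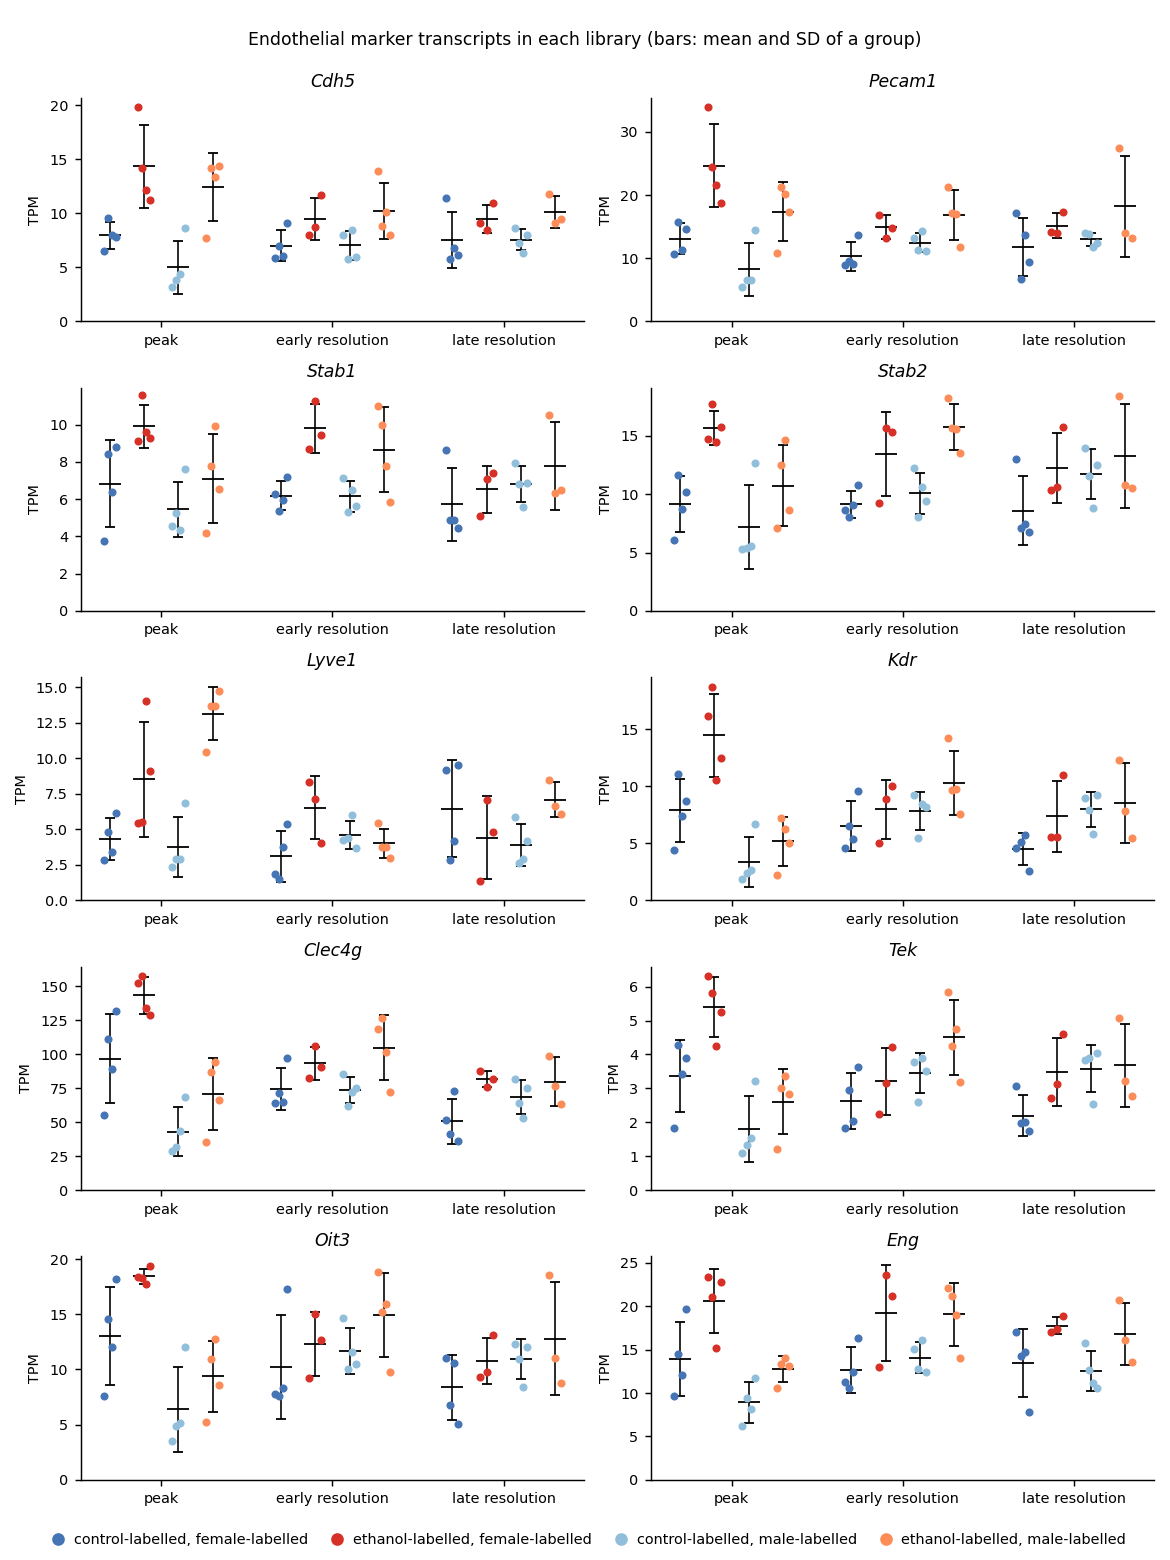
TPM of each member (vertical axes, from 0, with their own scale) in every library at peak, early and late resolution; points are libraries coloured by diet and sex label, and bars are the mean and SD of a group of 3 or 4. At peak the ethanol-labelled points lie above the control-labelled points of the same sex label for most libraries.

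At peak, ethanol-labelled libraries had more of every endothelial marker than control-labelled libraries. The differences ran from 0.45 for Stab1 to 1.31 for Lyve1 on the log2(TPM + 0.5) scale, averaged over the sex labels, with a median of 0.67. All 10 members passed limma's test at a false discovery rate of 0.05, against 17.3% of all genes called higher and 27.1% called in either direction. The median of all genes tested was 0.05. No member separated all 8 ethanol-labelled from all 8 control-labelled libraries.

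Cdh5 (chr8:104101625-104144511, mm10) encodes VE-cadherin, which joins endothelial cells to each other. At peak Cdh5 was 6.48, 9.56, 7.95 and 7.76 TPM in the 4 control females and 19.8, 14.2, 12.1 and 11.2 TPM in the 4 ethanol females. It was 3.17, 3.79, 4.37 and 8.63 TPM in the control males and 7.71, 14.2, 13.3 and 14.3 TPM in the ethanol males. Female-labelled libraries did not overlap between diets, and in male-labelled libraries ethanol male 1 lay below control male 4. The log2 difference was 1.04 ± 0.16 (SE), a fold of 2.06, with an adjusted p of 8.64e-06 (limma), and all 8 ethanol-labelled libraries lay above the control mean of their sex label. Pecam1 (chr11:106654217-106750628), or CD31, is an adhesion molecule of endothelial junctions that leukocytes and platelets carry too. It rose by 0.98 ± 0.18 (adjusted p = 0.00011, limma), also in 8 of 8 libraries, from 13.1 ± 2.48 to 24.6 ± 6.59 TPM in females and from 8.23 ± 4.21 to 17.4 ± 4.64 TPM in males (SD, n = 4 each).

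Lyve1 (chr7:110850607-110863239) binds hyaluronan and is made by sinusoidal and lymphatic endothelium. At peak Lyve1 was 2.83, 4.85, 3.45 and 6.15 TPM in control females and 5.48, 5.52, 14.0 and 9.10 TPM in ethanol females. It was 2.38, 2.92, 2.90 and 6.89 TPM in control males and 10.4, 13.7, 13.7 and 14.8 TPM in ethanol males. Male-labelled libraries were fully separated by diet and female-labelled libraries overlapped. The log2 difference of 1.31 ± 0.27 (fold 2.49, adjusted p = 0.000363, limma) was the largest of the 10 members. The scavenger receptors Stab1 (chr14:31139013-31168641) and Stab2 (chr10:86841198-87008025), or stabilin-1 and stabilin-2, take up waste from the blood, and the difference between members was not tested. Stab2, a hyaluronan receptor, was higher by 0.68 ± 0.17 (adjusted p = 0.00312, limma), in 7 of 8 libraries. Stab1 was higher by 0.45 ± 0.16 (adjusted p = 0.0387, limma), and this call was lost after median-of-ratios scaling (0.37, adjusted p = 0.0574) and when any of several single libraries was left out.

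Clec4g (chr8:3707064-3720651) was 55.1, 111, 88.9 and 132 TPM in peak control females and 152, 158, 134 and 129 TPM in ethanol females. It was 28.6, 31.9, 43.2 and 68.6 TPM in control males and 35.5, 87.2, 94.0 and 66.2 TPM in ethanol males. Both sex labels overlapped slightly between diets. Clec4g was higher by 0.67 ± 0.19 (adjusted p = 0.00704, limma) in 7 of 8 libraries. Oit3 (chr10:59422958-59441778), which encodes a protein with a zona pellucida domain and is known as a sinusoidal endothelial marker, was higher by 0.57 ± 0.21 (adjusted p = 0.0437, limma). This call lay near the threshold and was lost without any of 12 of the 16 peak libraries.

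The 3 signalling receptors were each called higher as deposited. Kdr (chr5:75932827-75978458), the main VEGF receptor also called VEGFR2, was higher by 0.73 ± 0.23 (fold 1.66, adjusted p = 0.0182, limma). Tek (chr4:94739289-94874976), the angiopoietin receptor TIE2, was higher by 0.55 ± 0.19 (adjusted p = 0.025, limma). Eng (chr2:32646595-32682669), or endoglin, a co-receptor for BMP9 and TGF-beta, was higher by 0.55 ± 0.15 (adjusted p = 0.00714, limma). Eng lay above the control mean in 8 of 8 ethanol-labelled libraries and Kdr and Tek in 7 of 8. The library on the other side was peak ethanol male 1, with 2.25 TPM of Kdr and 1.20 TPM of Tek. Kdr and Tek lost their call without peak control female 1 (6 members still called) or peak control male 1 (6 members still called). Tek also lost it without peak control male 2, peak ethanol male 2 or peak ethanol male 3, and when the peak libraries were fitted alone. After median-of-ratios scaling, 9 of the 10 members were called higher, against 15% of all genes.

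**Figure D2:**
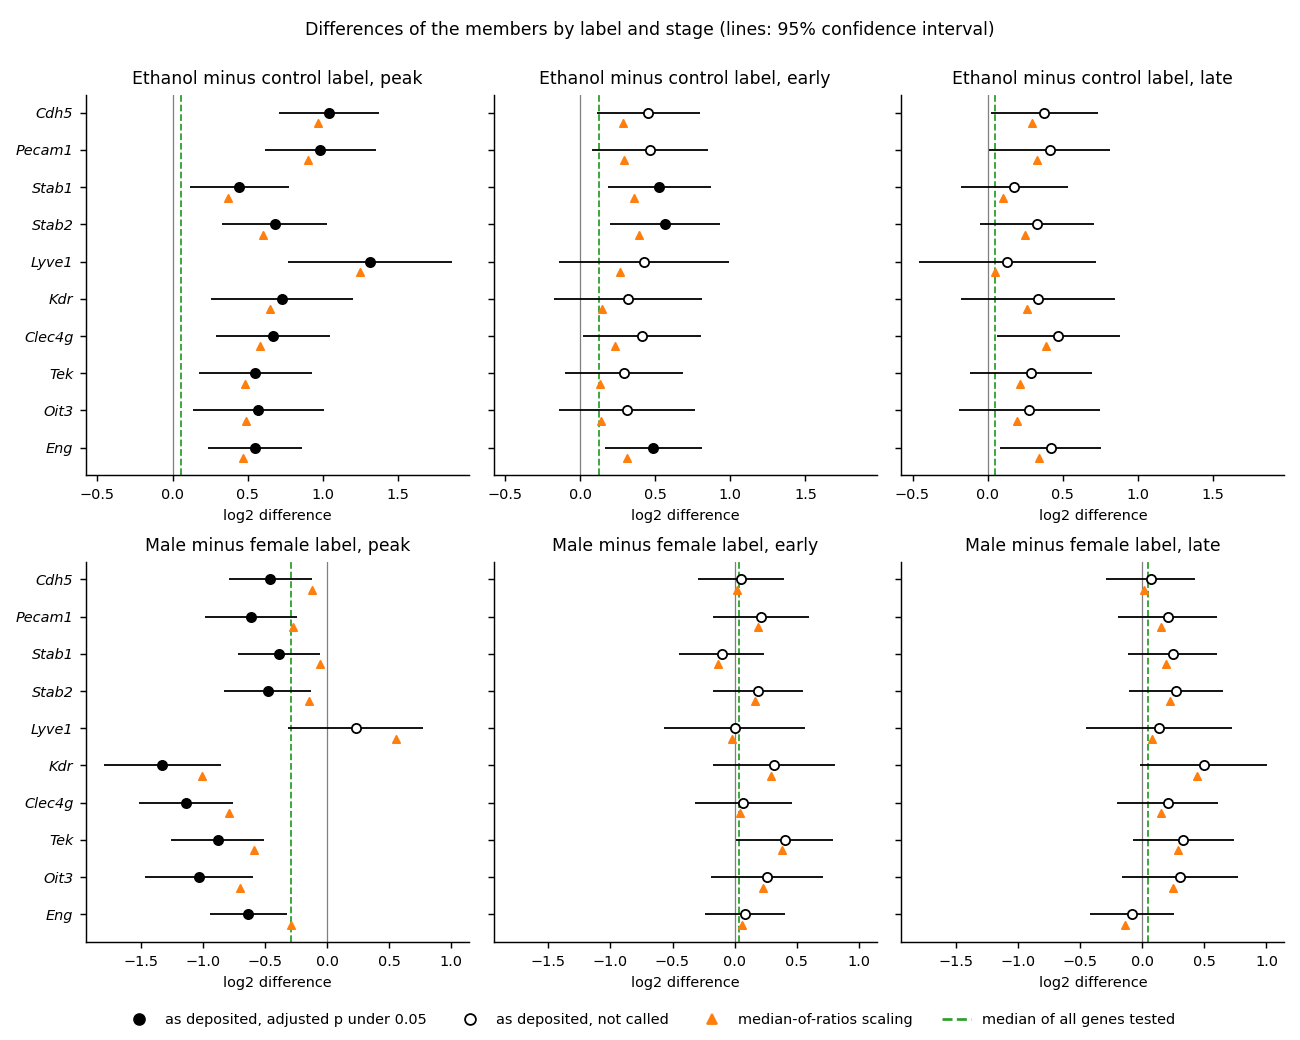
Log2 difference of each member (rows) between diet labels (top) and sex labels (bottom) at the 3 stages; lines are 95% confidence intervals, filled circles passed limma's test, open circles did not, triangles are values after median-of-ratios scaling and the dashed line is the median of all genes tested. The circles of the diet comparison are all filled at peak (0.45 to 1.31), 3 are filled at early and 0 at late resolution. For the sex label 9 are filled and below 0 at peak, against 46.7% of all genes called lower. At the resolution stages 0 circles of the sex label are filled.

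At early resolution 3 of the 10 members were called for the diet label as deposited and 0 after scaling. All 10 members were above 0, from 0.29 for Tek to 0.57 for Stab2, with a median of 0.44, while the median of all genes was itself 0.13. Stab2 (0.57 ± 0.18, adjusted p = 0.0266), Stab1 (0.53 ± 0.17, 0.0287) and Eng (0.49 ± 0.16, 0.0315) passed limma's test as deposited, against 14.3% of all genes called higher. Relative to the all-gene shift, by median-of-ratios scaling, the members lay between 0.13 and 0.39, with Stab2 at 0.39, Stab1 at 0.36 and Eng at 0.31, and 0 of 10 were called by limma, against 7.62% of all genes higher. As deposited, 6 members had an unadjusted p under 0.05, and the share of all genes at that threshold is not given. The count of 3 rested on single libraries: it was 0 without early ethanol female 2, early control male 2 or early ethanol male 1, and 1 without early control female 2, early ethanol female 3, early control male 4 or early ethanol male 2.

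Stab2 at early resolution was 8.63, 8.04, 9.11 and 10.8 TPM in control females and 9.25, 15.7 and 15.4 TPM in ethanol females. In males it was 12.2, 8.05, 10.6 and 9.40 TPM with control and 18.3, 15.7, 15.6 and 13.5 TPM with ethanol labels. Male-labelled libraries did not overlap between diets, and early ethanol female 1 lay among the control females.

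At late resolution no member passed limma's test for the diet label (0 of 10, against 8.82% of all genes called higher). An unadjusted p under 0.05 was seen for 4 members, and the share of all genes at that threshold is not given. The differences ran from 0.13 for Lyve1 to 0.47 for Clec4g, with a median of 0.33. Eng came closest (0.42 ± 0.17, adjusted p = 0.0864, limma), and all 6 late ethanol-labelled libraries were above the control mean of their sex label for Eng, Cdh5 and Pecam1. Eng was 17.0, 14.3, 14.8 and 7.85 TPM in control females and 17.0, 17.4 and 18.9 TPM in ethanol females, and 15.8, 12.7, 11.1 and 10.6 TPM in control males and 20.7, 16.1 and 13.6 TPM in ethanol males. Without late control female 1, the library whose sex-chromosome transcripts broke the pattern, 2 members were called by limma: Cdh5 (0.48, adjusted p = 0.0466) and Eng (0.48, adjusted p = 0.0411). That library had the most Cdh5, Pecam1, Stab1, Stab2, Tek, Oit3 and Eng of its group, for example 11.4 TPM of Cdh5 against 5.80, 6.76 and 6.10 TPM. The change of the diet difference between stages was tested directly: from peak to early 0 of 10 members were called by limma (2 with an unadjusted p under 0.05; 0% of all genes), and from peak to late 0 of 10 (3 with an unadjusted p under 0.05; 3.98% of all genes). After median-of-ratios scaling the change from peak to late was called for 1 member, Cdh5 (6.06% of all genes called lower).

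Between sex labels at peak, male-labelled libraries had less of most endothelial markers. As deposited, 9 of 10 members were lower by limma, against 46.7% of all genes called lower and 51% called in either direction. The median of all genes was itself -0.29, and the share of calls that were higher in males was 8.36% as deposited and 51.1% after median-of-ratios scaling. The differences between sex labels at peak are therefore given after that scaling. On that scale 4 members remained called lower, against 15.4% of all genes: Kdr, Clec4g, Oit3 and Tek.

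Kdr was -1.01 ± 0.20 (SE; adjusted p = 0.000338, limma). At peak Kdr was 4.40, 11.1, 7.43 and 8.71 TPM in control females and 1.84, 2.39, 2.68 and 6.66 TPM in control males. It was 16.2, 18.7, 10.5 and 12.5 TPM in ethanol females and 2.25, 7.22, 6.27 and 4.99 TPM in ethanol males. Ethanol-labelled libraries did not overlap between sex labels, control-labelled libraries overlapped through control male 4 and control female 1, and all 8 male-labelled libraries lay below the female mean of their diet label, as deposited and after scaling.

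Clec4g was -0.79 ± 0.18 (adjusted p = 0.00165, limma), Oit3 -0.70 ± 0.20 (adjusted p = 0.00747, limma) and Tek -0.59 ± 0.16 (adjusted p = 0.00528, limma). As deposited, 8 of 8 male-labelled libraries lay below the female mean of their diet label for each of these genes, and after scaling 8 of 8 for Clec4g, 7 of 8 for Tek and 6 of 8 for Oit3. Oit3 was 18.3, 18.3, 17.7 and 19.4 TPM in ethanol females and 5.25, 10.9, 12.8 and 8.60 TPM in ethanol males. Tek was 6.31, 5.82, 4.26 and 5.24 TPM in ethanol females and 1.20, 3.02, 3.38 and 2.84 TPM in ethanol males. Among ethanol-labelled libraries as deposited, 5 members did not overlap between sex labels: Kdr, Tek, Oit3, Clec4g and Eng. After scaling 2 did not, Kdr and Tek, and among control-labelled libraries every member overlapped on both scales. The share of all genes without overlap is not given. In ethanol-labelled peak libraries limma called 45.2% of all genes lower in males as deposited. After scaling it called 15.8% lower and 15.6% higher. Of the 10 members it called 6 lower as deposited, and 2 lower and 1 higher after scaling. As deposited, the calls of Kdr, Clec4g, Oit3 and Tek between sex labels at peak held in every alternative run that tested them, single libraries left out included.

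The other 6 members were not called on this scale. Eng was -0.29 (adjusted p = 0.0652, limma), Pecam1 -0.27, Stab2 -0.14, Cdh5 -0.12 and Stab1 -0.06, and Lyve1 was 0.55 (adjusted p = 0.136, limma). Eng was called lower with quantile normalization (adjusted p = 0.0414).

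At early resolution 0 of 10 members were called between sex labels by limma (1 with an unadjusted p under 0.05, Tek; 0.596% of all genes), and at late resolution 0 of 10 (0 with an unadjusted p under 0.05; 3.25% of all genes). The sign of the larger differences was then the opposite: Kdr was 0.32 at early and 0.49 at late resolution as deposited, and Tek 0.40 and 0.33, none of them called. The change between stages was itself called. From peak to early, 7 members were called upward as deposited, against 29.6% of all genes, and 4 after median-of-ratios scaling, against 9.12%: Kdr 1.30 ± 0.29, Tek 0.97 ± 0.23, Oit3 0.93 ± 0.29 and Clec4g 0.83 ± 0.27. From peak to late, 7 were called as deposited, against 34.6%, and the same 4 after scaling, against 11.3%: Kdr 1.45 ± 0.29, Oit3 0.95 ± 0.29, Clec4g 0.94 ± 0.27 and Tek 0.87 ± 0.23. The all-gene shifts of these changes were 0.32 and 0.34, and they share the peak libraries. From peak to late the count as deposited was 4 without late ethanol male 1.

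Whether the diet difference depended on the sex label was tested by an interaction. For the members 0 of 10 were called by limma at peak (0 with an unadjusted p under 0.05; 0.16% of all genes), 0 at early resolution (1 unadjusted; 0.00889%) and 0 at late resolution (1 unadjusted; 0.0445%). The 3 members with the smallest interaction p at peak were Lyve1, Cdh5 and Stab1. Lyve1 was higher with the ethanol label by 1.77 ± 0.38 in males (adjusted p = 0.000923, limma) and by 0.86 ± 0.38 in females (adjusted p = 0.177, limma; 0.67 after scaling, adjusted p = 0.353), and the interaction was 0.91 with a 95% confidence interval from -0.18 to 2.01 (adjusted p = 0.435, limma). Cdh5 was higher by 1.29 ± 0.23 in males and 0.79 ± 0.23 in females, both called as deposited, and the interaction was 0.49 with an interval from -0.17 to 1.16. In females, where the all-gene shift was 0.15, the Cdh5 call was lost after median-of-ratios scaling (0.60, adjusted p = 0.0527). Stab1 was 0.33 ± 0.23 in males and 0.56 ± 0.23 in females (0.37 after scaling), none called.

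Ratios between members within a library do not depend on how the library was scaled. They were chosen with the values known and are given without a test. Against Cdh5, Kdr had a mean log2 ratio of 0.01 ± 0.32 (SD, n = 4) in peak ethanol females and -1.34 ± 0.37 (SD, n = 4) in peak ethanol males, and the libraries of these 2 groups did not overlap. In peak controls the ratio was -0.07 ± 0.35 in females and -0.63 ± 0.18 in males. At early resolution all 4 group means lay between -0.28 and 0.15. At late resolution it was -0.74 ± 0.61 (SD, n = 4) in control females, and the other 3 group means lay between -0.43 and 0.07. Clec4g over Cdh5 at peak was also higher in ethanol females, 3.35 ± 0.27, than in ethanol males, 2.46 ± 0.31. Its mean in peak control females lay above that of ethanol females, unlike for Kdr over Cdh5. Lyve1 over Stab2, the ratio of both hyaluronan receptors, was 0.34 ± 0.39 in peak ethanol males, from -0.10 to 0.77, and -0.99 ± 0.73 in peak ethanol females. In peak controls it was -1.11 ± 0.27 in females and -0.96 ± 0.13 in males, and in early ethanol males it ran from -2.16 to -1.74. Each of the ratios given here differed between some groups by more than 1 SD. Among 12 groups some pair is likely to do so for any ratio, so no conclusion is drawn from it. Pecam1 over Cdh5, Tek over Cdh5 and Stab1 over Stab2 were computed too and are not given, so the ratios shown do not stand for all members.

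**Figure D3:**
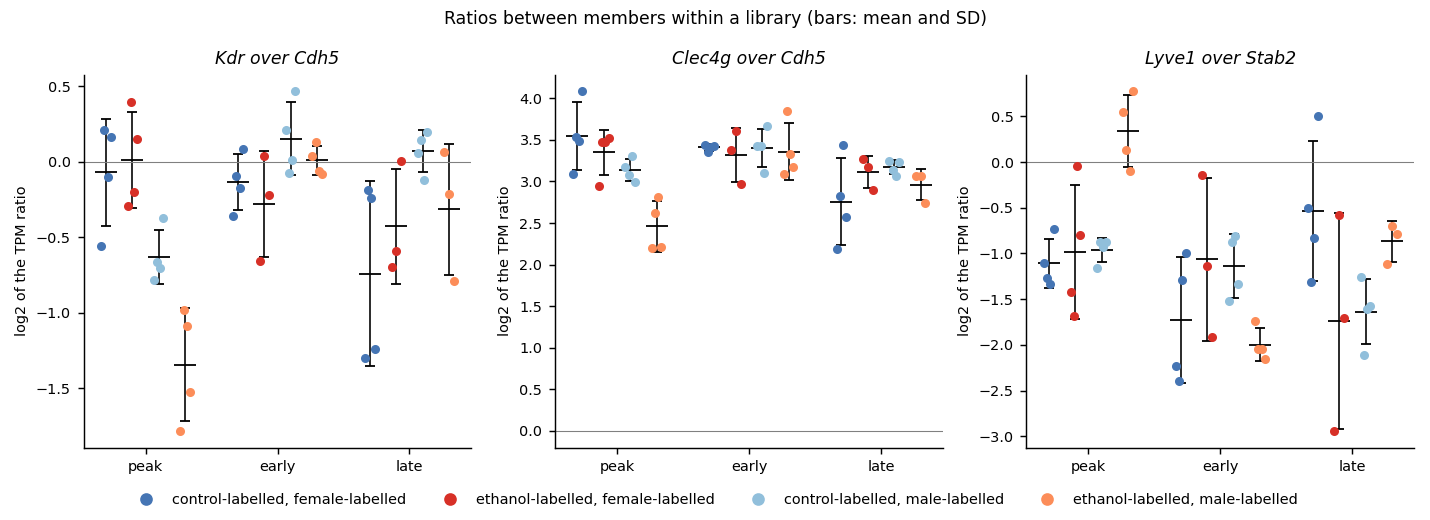
Log2 ratio of the TPM of Kdr to Cdh5, Clec4g to Cdh5 and Lyve1 to Stab2 in each library (points, coloured by diet and sex label) at the 3 stages, with the mean and SD of each group as bars. Peak ethanol male libraries are the lowest group for Kdr over Cdh5 (-1.34) and Clec4g over Cdh5 (2.46) and the highest group for Lyve1 over Stab2 (0.34).

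The partners of the receptors were measured too. Of 13 tested genes of the VEGF and neuropilin pathway, 6 were called higher and 0 lower with the ethanol label at peak as deposited (6 and 1 after scaling), against 17.3% of all genes called higher. The neuropilins, co-receptors that bind VEGF with Kdr, were among them, Nrp2 at 1.72 ± 0.19 (adjusted p = 6.79e-09, limma) and Nrp1 at 1.30 ± 0.24 (adjusted p = 8.06e-05, limma). The VEGF receptors Flt4 (0.77 ± 0.19) and Flt1 (0.70 ± 0.17) were called, and the ligand Vegfa was 0.40 ± 0.16 (adjusted p = 0.0637, limma). Of 5 tested genes of the angiopoietin-TIE pathway 3 were called higher, among them Tie1, the partner receptor of Tek (0.58 ± 0.16), and Ptprb, the phosphatase VE-PTP that acts on Tek and VE-cadherin (0.56 ± 0.21). The angiopoietins Angpt1 and Angpt2 averaged 0.137 and 0.324 TPM and were too low to be tested.

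Of 16 tested genes of the BMP9-ALK1-endoglin and TGF-beta list, 9 were called higher and 0 lower with the ethanol label at peak as deposited. After scaling the counts were 9 and 1. Of all genes, 17.3% were called higher as deposited and 15% after scaling, and 20.7% lower after scaling. The differences of the list ran from -0.48 to 1.80. It also holds Hamp, whose mean of 3695 TPM is above that of every member, so it is not read as a measure of endothelium alone. The targets of BMP signalling Id1 and Id3 were higher by 1.80 ± 0.19 (adjusted p = 5.11e-09, limma) and 1.44 ± 0.25 (adjusted p = 3.2e-05, limma). Gdf2, which encodes BMP9, a circulating ligand of endoglin, was 0.76 ± 0.17 higher and Acvrl1, the receptor ALK1, 0.59 ± 0.14 higher, both called. Bmp10 was 0.58 ± 0.24 and not called. Between sex labels at peak, after scaling, 3 of the 16 were called lower in males and 2 higher, with a median of 0.00. Of all genes, 15.4% were called lower and 16.2% higher, so the list as a whole did not stand out. Id1 was among the lower genes (-0.75, adjusted p = 0.0044, limma), while Acvrl1 (-0.04) and Gdf2 (0.00) were not called.

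Lists of other endothelial and related genes at peak were read against 17.3% of all genes called higher with the ethanol label as deposited and 15% after scaling. As deposited, 15 of 17 other pan-endothelial genes were called higher (median 0.61), 9 of 16 other sinusoidal genes (median 0.53), 8 of 12 large-vessel and capillarised genes (median 0.53), 4 of 12 zonated genes (median 0.37), 7 of 15 junction genes, 3 of 7 Notch pathway genes, 2 of 7 hyaluronan genes, 7 of 13 activation and vasoregulation genes and 4 of 5 lymphatic genes. None of these 9 lists had a gene called lower as deposited. After scaling the counts called higher were 15 pan-endothelial, 7 sinusoidal (1 lower), 7 large-vessel, 4 zonated, 7 junction, 3 Notch pathway, 1 hyaluronan, 6 activation and 4 lymphatic genes. Some genes stand on more than 1 list, such as Cd34, Thbd, Flt4 and Nrp2, and Reln is also on the stellate list. The 5 lymphatic genes tested were Prox1, Ccl21a, Flt4, Reln and Nrp2, while Pdpn and Mmrn1 were too low to be tested. The junction list includes Ctnnb1 (mean 98.5 TPM) and the hyaluronan list Itih3 (mean 1435 TPM), both above the mean of every member. These lists are therefore not read as measures of endothelium alone. The adhesion molecule Esam was 0.99 ± 0.19 higher, Cd34, a marker of capillarised and large-vessel endothelium, 1.46 ± 0.27 higher, and the anticoagulant receptor Thbd 1.24 ± 0.27 higher. Nos3, the endothelial nitric oxide synthase, was 0.71 ± 0.12 and Icam1, which binds leukocytes, 1.13 ± 0.21 higher. The difference between the sinusoidal and large-vessel lists was not tested.

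Between sex labels at peak, the same lists were compared after scaling, against 15.4% of all genes called lower and 16.2% called higher. Called lower in males were 9 of 17 pan-endothelial genes (0 higher, median -0.37), 9 of 16 sinusoidal genes (2 higher, median -0.46), 5 of 12 zonated genes (1 higher, median -0.34) and 6 of 15 junction genes (0 higher, median -0.03). Of 7 Notch pathway genes 3 were lower and 0 higher (median -0.30). Not all lists went down. Of 7 hyaluronan genes 3 were higher and 0 lower (median 0.12). Of 13 activation and vasoregulation genes 4 were higher and 3 lower (median 0.09). None of 5 lymphatic genes was called (median -0.01). Of 12 large-vessel and capillarised genes 2 were lower and 1 higher, with a median of 0.02, and Cd34 (-0.23) and Plvap (-0.01) were not called. The pan-endothelial Tie1 was at -0.37 (adjusted p = 0.029, limma), the sinusoidal Plxnc1 at -0.46 (adjusted p = 0.026, limma), and the protease Ctsl, which other cells make as well, was higher by 0.94. Differences between these lists were not tested.

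Markers of other liver cells were compared in the same way, against the 17.3% of all genes called higher with the ethanol label at peak as deposited. There, 10 of 13 stellate cell and fibroblast genes were called higher (median 0.85), among them Dcn at 0.85 ± 0.18 and Ecm1 at 1.00 ± 0.22, 2 of 4 cholangiocyte genes, 1 of 14 Kupffer cell and macrophage genes (C1qc at 0.49 ± 0.17, list median 0.43), and 3 of 13 hepatocyte genes with 1 lower (median 0.04). None of the stellate, Kupffer cell or hepatocyte genes was at 0 in any library. The summed stellate list was 88.0 to 314 TPM in peak control females, 305 to 523 TPM in ethanol females, 122 to 174 TPM in control males and 209 to 355 TPM in ethanol males. Its part in the endothelial differences was not tested. Between sex labels after scaling, 0 of 13 stellate genes were called and the median was 0.00. All 6 neutrophil genes tested were called higher in males there (median 1.89, against 16.2% of all genes called higher), with a summed list of 104 to 156 TPM in peak ethanol males against 7.47 to 44.8 TPM in peak ethanol females; the neutrophil genes Ly6g, Mpo and Camp were too low to be tested. The part of these cells in the endothelial differences between sex labels was not tested.

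**Figure D4:**
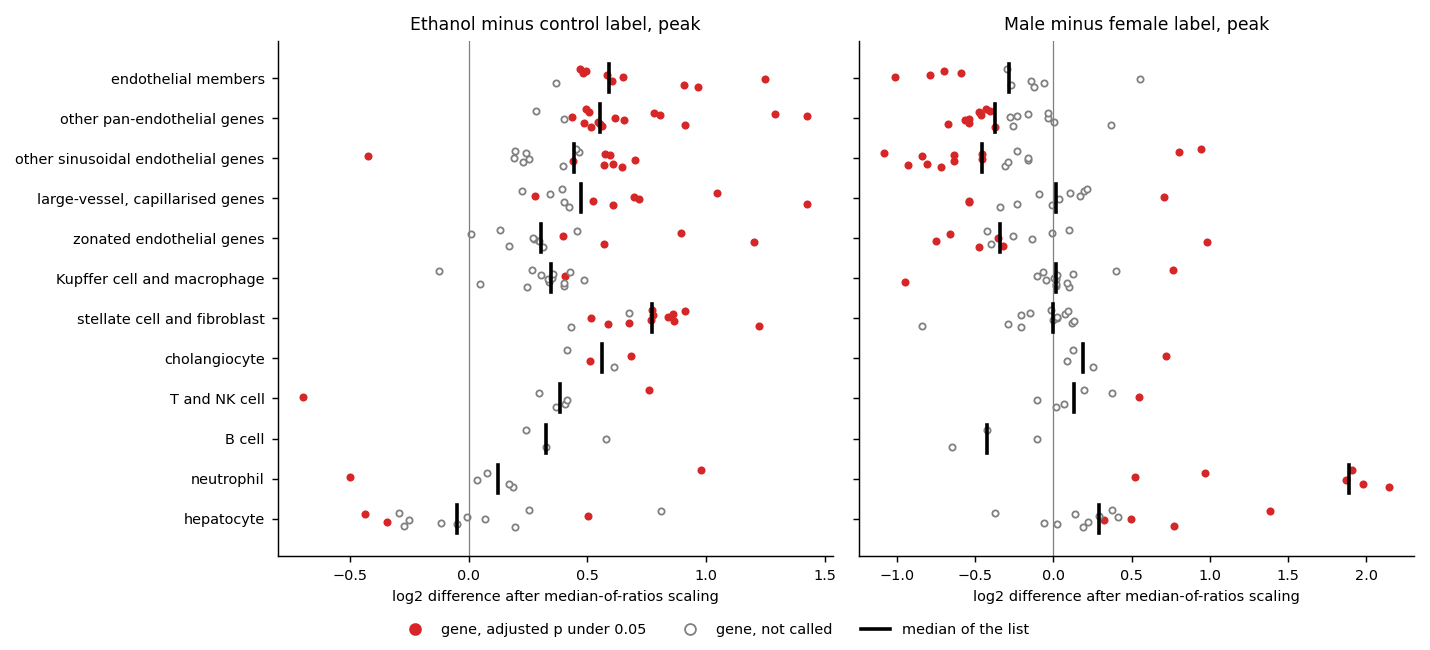
Log2 difference after median-of-ratios scaling of each gene of 12 marker lists (rows) at peak, between diet labels (left) and sex labels (right); filled points are genes with an adjusted p under 0.05, open points genes not called, and black bars the list medians. On the left, the medians of the endothelial and stellate lists lie to the right of 0, with 1 sinusoidal gene called lower. On the right, the medians of the members (-0.28) and of the pan-endothelial and sinusoidal lists lie to the left of 0. The stellate list is centred near 0.00 there. Single genes lie on the other side there, among them Lyve1 (0.55, not called) and 2 sinusoidal genes called higher.

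At early resolution 10 of 14 Kupffer cell and macrophage genes were called higher with the ethanol label as deposited (median 0.72) and 6 after scaling, and at late resolution 5 (median 0.70) and 8. Of 17 pan-endothelial genes 4 were called higher at early resolution (1 after scaling) and 3 at late resolution (3 after scaling), and of 16 sinusoidal genes 0 at each (0 and 1 after scaling), against 14.3% and 8.82% of all genes as deposited. The difference between the Kupffer cell and endothelial lists was not tested.

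Within groups, the members varied together from library to library. After taking off the mean of each of the 12 groups, Pearson's r over 45 libraries was above 0 for all 45 pairs of members, from 0.25 to 0.92 with a median of 0.76. The libraries share their scaling to a fixed total, the share of endothelial RNA and any handling of a library, so these values only describe how alike the patterns were. The pair most alike was Kdr and Tek (0.92), followed by Clec4g and Oit3 (0.90). Lyve1 was least like the rest, with a median r of 0.38 to the other 9 and its lowest value against Kdr (0.25).

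**Figure D5:**
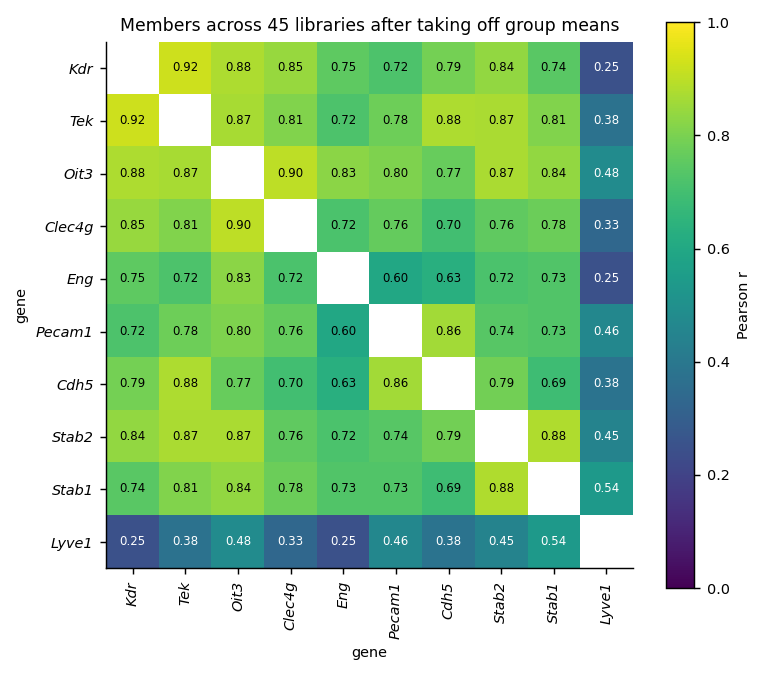
Pearson's r between each pair of members (rows and columns) over 45 libraries after group means were taken off, printed in each cell and coloured from 0 to 1. Kdr and Tek (0.92) and Clec4g and Oit3 (0.90) are the brightest pairs. Stab2 with Tek and with Oit3 (0.87 each) is brighter than Clec4g with Tek (0.81). The Lyve1 row and column are the darkest (0.25 to 0.54).

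Among all other genes tested, those most like the mean of the members over these libraries were Flt4 (r = 0.950), Pde2a (0.945), Cd300lg (0.933), Tie1 (0.928) and Mmrn2 (0.923), followed by Aqp1, Erg, Mylip, Fcgr2b and Ptprb down to 0.897. Of these 10 genes, 6 stood on the endothelial or pathway lists. Taken singly, the most alike gene was Fgd5 for Cdh5 (0.858), Pde2a for Pecam1 (0.865) and Stab2 (0.886), Robo4 for Stab1 (0.877), Mcam for Lyve1 (0.778), Mmrn2 for Kdr (0.926), Cd300lg for Clec4g (0.928) and Oit3 (0.939), Ptprb for Tek (0.929) and Npr1 for Eng (0.889). Lyve1 again had the lowest value.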

How the data were processed

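The authors deposited 1 table of 24972 genes in 45 libraries. Its values are TPM as the authors deposited them: totals per library are 999999 to 1000001, and longer genes have smaller lowest values (Spearman rho = -0.57, 3261 genes). Per the labels' protocols, RNA came from a spin-column kit and libraries from a stranded mRNA kit. The submitters' processing notes name the build mm10. Aligner, counter and annotation: not given in the sources used here. Sequencing depth is unknown, so no counting interval can be given, and between 15093 and 16402 genes were above 0 per library.

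After 26 entries whose names had become dates were left out (0.044% of TPM), 24946 genes remained. On the log2(TPM + 0.5) scale, 11244 genes whose mean reached 0.5 TPM were tested with limma 3.58.1 in R 4.3.3, with 12 group means, a variance trend (33 residual and 3.77 prior degrees of freedom) and Benjamini-Hochberg adjustment over all genes tested. A gene was called at an adjusted p under 0.05, and the shares of all genes count such calls. Shares of all genes at an unadjusted p under 0.05 are not given, so the unadjusted counts of members have no background to be read against. A difference between diet labels is averaged over the sex labels and the reverse, so fold changes are on the log2(TPM + 0.5) scale and understate those of low genes. Where the median of all genes shifted by over 0.1, values after median-of-ratios scaling are given beside or in place of those as deposited. The script was tested on simulated data. Tables were made with pandas 2.3.3, scipy 1.17.1 and numpy 2.4.6 in Python 3.11.15, and figures with matplotlib 3.10.9. Gene coordinates are from GENCODE M21 and promoters from RefSeq.

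The members, gene lists and naming rule were chosen with earlier results of these data known. Named are all 10 members; the 3 genes of each other list with the smallest p for the diet label at peak; known binding partners; for single sex labels, the 3 members with the smallest interaction p; and the genes whose pattern within groups was most alike. A pairing of libraries by replicate number was checked by correlating deviations from group means: 21 pairs of diet labels had r from -0.371 to 0.25 (median -0.053) and 22 pairs of sex labels r from -0.433 to 0.527 (median -0.023). No general pairing by number was seen. With r over 0.1 in 7 of the 21 and 6 of the 22 pairs, the check cannot tell whether some numbers pair. The other settings tried were pseudocounts of 0.1 and 2, a minimum mean of 5 TPM or none, median-of-ratios scaling, quantile normalization, a robust or no variance trend, weights per array, each stage fitted alone, the replicate number as a block, a false discovery rate of 0.01 and each library left out in turn.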

Additional observations from a re-analysis of the deposited data

Results flagged for a closer look

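In 9 of 90 combinations of a member and a group of 4 libraries, 1 library lay far from the other 3, where chance gives about 4.5. The members vary together within groups, so 1 library can be flagged for several members. The combinations are not independent, and an excess over chance was not tested. In peak control male 4 this held for Pecam1 (14.5 TPM, others at most 6.54), Stab2 (12.6 TPM, others at most 5.52) and Lyve1 (6.89 TPM, others at most 2.92). In early control female 4 it held for Pecam1 (13.6 TPM) and Oit3 (17.2 TPM, others at most 8.33). In late control female 1, whose sex-chromosome transcripts differ from those of the other control-labelled libraries, it held for Stab1 (8.66 TPM, others at most 4.90) and Stab2 (13.0 TPM). Peak ethanol male 1 stood low for Cdh5 (7.71 TPM, others at least 13.3), and late control male 3 for Tek (2.54 TPM, others at least 3.84).

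The difference between male-labelled and female-labelled libraries changed between stages by limma's test. As deposited, the change from peak to early was 0.82 for Pecam1, 0.67 for Stab2, 1.64 for Kdr, 1.21 for Clec4g, 1.28 for Tek, 1.29 for Oit3 and 0.72 for Eng on the log2 scale. From peak to late it was 0.82 for Pecam1, 0.63 for Stab1, 0.75 for Stab2, 1.82 for Kdr, 1.34 for Clec4g, 1.21 for Tek and 1.33 for Oit3. After median-of-ratios scaling Kdr, Clec4g, Tek and Oit3 kept the call at each. The median of all genes moved by 0.32 and 0.34 as deposited.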

How the results depend on the processing

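Counts of members called moved as follows. The diet label at peak gave 10, and 6 at a false discovery rate of 0.01. Stab1 and Oit3 lost that call with no minimum mean, and Stab1, Tek and Oit3 with the peak libraries fitted alone. At early resolution it gave 3, against 0 with median-of-ratios scaling, 1 with quantile normalization, 5 with the replicate block and 0 at a rate of 0.01, and at late resolution 0, against 1 with quantile normalization. The sex label at peak gave 9, against 4 with median-of-ratios scaling and 5 with quantile normalization. Cdh5, Stab1 and Stab2 lost that call at a rate of 0.01, Cdh5 and Stab1 with the peak libraries fitted alone, and Stab1 with no minimum mean. The change of the diet difference from peak to late gave 0, against 1 with each scaling and 2 with array weights. The change of the sex label difference gave 7 to early and 7 to late, against 4 with each scaling and 4 at a rate of 0.01 in both. With 1 library left out the counts were 6 to 10 for the diet label at peak, 0 to 4 at early and 0 to 2 at late resolution, 6 to 9 for the sex label at peak, 0 to 2 for the change of the diet difference from peak to late (2 without peak control male 4, and 1 without late control female 2 or 3 or late ethanol female 2 or 3), and 5 to 8 and 4 to 9 for the changes of the sex label difference. No general pairing by number was seen, and the replicate block, with 15 residual degrees of freedom for diet and 16 for sex labels, left the other counts within 1.5 times. Early Cdh5 and Pecam1 were called with it.

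Of 39 called differences of members, 0 changed sign. Values that did were all uncalled but not all near 0, and the cause was not tested. For male minus female at early resolution, Lyve1 was -0.031 with a pseudocount of 2, -0.025 with median-of-ratios scaling, -0.013 with quantile normalization and -0.090 with array weights, Clec4g -0.0016 and -0.0033 with the last 2, and Eng -0.085 with array weights. At late resolution Cdh5 was -0.0012 with quantile normalization and Lyve1 -0.068 with array weights. For the change of the diet difference from peak to early, Stab1 was -0.010 with median-of-ratios scaling and Eng 0.0029 with the replicate block. For the change of the sex label difference from peak to early, Stab1 was 0.28 as deposited. It was -0.073 and -0.062 with median-of-ratios scaling and quantile normalization. Cdh5 between sex labels in ethanol-labelled peak libraries was -0.21 as deposited and 0.25 and 0.19 with these 2 settings. With 1 library left out, ranges that crossed 0 were -0.082 to 0.43 for Lyve1 (diet, late), -0.14 to 0.14 for Lyve1, -0.026 to 0.13 for Cdh5 and -0.042 to 0.17 for Eng (sex label, early), -0.16 to 0.35 for Lyve1 (sex label, late), -0.41 to 0.0047 for Stab1 (interaction, peak), -0.15 to 0.067 for Eng, -0.025 to 0.20 for Stab1 and -0.26 to 0.0038 for Stab2 (change of diet, peak to early) and -0.39 to 0.12 for Lyve1 (change of sex label, peak to late). TPM carry no depth, so the counting error of low members such as Tek is unknown.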
